A study of Rattus norvegicus with 60 samples.

Results

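Gene expression of the kidney outer medulla was set against that of the kidney cortex in rats of a NOX4 knockout line derived from the Dahl salt-sensitive rat, on the control diet. The comparison took every library that the labels give to these 2 groups, 5 from outer medulla and 5 from cortex, which is 10 of the 60 libraries of the series. The series also held the wild-type parent strain (SS), and both strains after 7 or 21 days on a diet with 4.0% NaCl, again with 5 libraries per tissue. Both tissues compared here come from the knockout line, so the knockout itself is shared by the 2 groups. SS rats on the control diet and NOX4 rats after 21 days of salt are used below to ask whether the tissue difference departs from theirs. The labels give neither sex, age, salt content of the control diet nor how many animals gave both tissues. P-values then measure the spread between libraries. In the main fit that spread was estimated over all 60 libraries of the series, not over the 10 compared alone.

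The cortex holds the glomeruli, the convoluted proximal and distal tubules and the connecting tubule. The outer medulla holds the straight proximal tubule (segment 3) in its outer stripe, the thick ascending limb, thin descending limbs, collecting ducts and bundles of vasa recta. NADPH oxidase 4, the enzyme encoded by Nox4, makes hydrogen peroxide and is known in kidney mainly from proximal tubule cells. The outer medulla works at low oxygen and high osmolality, and in Dahl salt-sensitive rats it has long been studied for its part in salt-induced hypertension.

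Totals ran from 15.7 M to 29.2 M counts in NOX4 outer medulla and from 16.4 M to 29.6 M in NOX4 cortex. A count was present for 18241 to 18899 genes in outer medulla libraries and for 17560 to 18468 in cortex libraries. On log2 CPM (counts per 1000000 counts, on library sizes scaled by TMM) the first principal component took 71.7% of the variance and separated the tissues. A few libraries stood apart from their group. Outer medulla replicate 3 had the most proximal tubule transcripts and the fewest principal cell transcripts, and outer medulla replicate 4 had the highest levels of several cortical genes. Cortex replicate 3 had fewer proximal tubule transcripts and more endothelial and leukocyte transcripts than the other 4 cortex libraries. In bulk tissue, fewer cells of a type and less RNA per cell cannot be told apart, and this holds for every difference given here. Without replicate 3 of both tissues, a setting chosen after seeing the data, 6117 genes were called in place of 6224.

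Nox4 (ENSRNOG00000013925, chromosome 1, 150797084 to 150976194 in the deposited coordinates, plus strand) was 16.4-fold lower in outer medulla than in cortex. Its counts were 58, 47, 106, 283 and 61 in outer medulla replicates 1 to 5, against 898, 1143, 1558, 1707 and 1905 in cortex. On the CPM scale these were 2.98, 2.79, 4.36, 9.18 and 3.1 in outer medulla, against 61.9, 82, 69.3, 87.5 and 75 in cortex. The groups did not overlap, and the highest outer medulla library, replicate 4, lay far under the lowest cortex library. The log2 fold change was -4.04 ± 0.49 (SE) with an adjusted p of 1.21e-09, and the exact 2-sided permutation p was 0.00794, the smallest that 5 against 5 libraries allow. SS rats had 8.48 ± 2.28 CPM in outer medulla and 358 ± 85.6 CPM in cortex (SD, n = 5 each), the lowest SS cortex library having 282 CPM. NOX4 libraries were thus lower than SS libraries in cortex without overlap, and transcripts of the gene remained in the knockout line. Gene-level counts do not place these reads on exons, and the labels do not say what the mutation removes.

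In all, 6224 of 16326 genes tested differed between outer medulla and cortex at an adjusted p under 0.05, which is 38.1%. Of these, 3265 (20% of those tested) were higher in outer medulla and 2959 (18.1%) were lower. The median log2 fold change over all genes tested was 0.04. Changes of at least 4-fold made up 719 of the higher and 654 of the lower calls, and 3106 calls were under 2-fold. In 19.6% of genes every outer medulla library lay above every cortex library, and in 19% every one lay below.

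**Figure D1:**
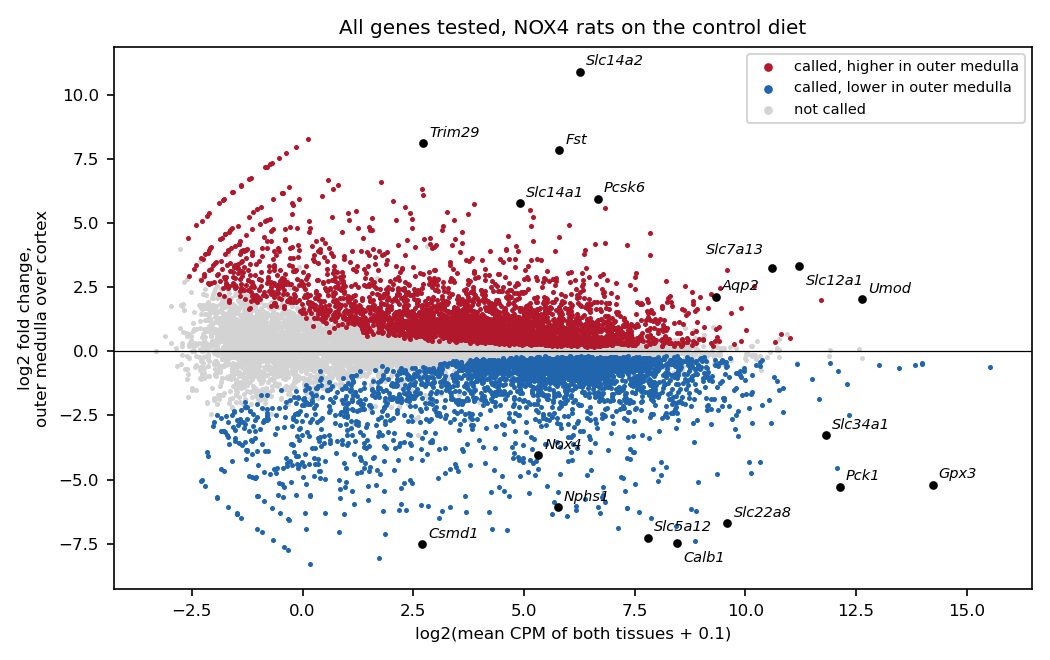
Each point is 1 of the 16326 genes tested, with log2 of the mean CPM of both tissues on the x axis and the log2 fold change of outer medulla over cortex on the y axis, in NOX4 rats on the control diet. Red and blue points passed an adjusted p of 0.05 and lie above or below 0; Slc14a2 and Calb1 stand near the 2 ends.

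Among genes with a symbol, at least 5 CPM in 1 tissue and no overlap between the libraries, the highest ratio belonged to a row of Slc14a2, the urea transporter gene of thin descending limbs and inner medullary collecting ducts. This row (ENSRNOG00000056021, chromosome 18) shares its symbol with a second row, so that reads may be divided between them. It had 266, 198, 16.6, 122 and 164 CPM in outer medulla, where replicate 3 stood far under the others, against 0, 0.359, 0.0889, 0 and 0 CPM in cortex, where 3 libraries had no count. The log2 fold change was 10.90 ± 0.95 (adjusted p = 8.25e-14). With so few cortex reads, its size and rank depend on the prior count of the fit. Slc14a1, the urea transporter gene of descending vasa recta and red cells, had 28.1 to 75.2 CPM in outer medulla and 0.718 to 1.47 CPM in cortex, a log2 fold change of 5.78 ± 0.46.

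Among the next in order stood Trim29, Fst, Muc13, Corin, Liph, Pcsk6, Psca, Wnt7b and Slc4a10. Fst encodes follistatin, which binds activin. It had 133, 106, 79.5, 100.4 and 136 CPM in outer medulla, against 0.138, 0.502, 1.16, 0.0513 and 0.433 CPM in cortex. Corin encodes the protease that activates pro-atrial natriuretic peptide, and Pcsk6 a convertase known to cleave corin. Corin averaged 12.6 ± 8.16 CPM in outer medulla and 0.139 ± 0.104 CPM in cortex (SD, n = 5 each), and Pcsk6 199 ± 67.6 CPM in outer medulla and 3.26 ± 0.689 CPM in cortex. Wnt7b, a ligand that in the mouse is needed for the medulla to form, had 33.8 to 93.2 CPM in outer medulla and 1.22 to 1.96 CPM in cortex. Slc4a10, a sodium bicarbonate transporter gene, had a log2 fold change of 5.44, Psca 5.62 and Liph 6.08. Trim29, with 5.52 to 18 CPM in outer medulla, had no count in 3 cortex libraries and 2 counts in each of the other two, and Muc13, with 2.21 to 9.47 CPM in outer medulla, had at most 3 counts in a cortex library. No ratio is given for these 2 genes.

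At the other end stood Ctcfl, Csmd1, Calb1, Klk1c9, Slc5a12, Kcne1, Insrr, Trpv5, Slc34a3, Slc5a2, Slc22a8 and Hfe2, whose log2 fold changes, Ctcfl, Csmd1 and Kcne1 aside, ran from -7.49 to -6.50. Calb1 encodes calbindin, the calcium buffer of the connecting tubule. It had 1.34, 0.533, 0.823, 10.9 and 5.24 CPM in outer medulla, against 525, 629, 903, 726 and 715 CPM in cortex, a log2 fold change of -7.49 ± 0.92. Outer medulla replicates 4 and 5 held most of the few Calb1 reads in that tissue. Klk1c9, a kallikrein gene of a multigene family whose reads may be divided among copies, had 0.533 to 19.2 CPM in outer medulla and 877 to 1074 CPM in cortex. Ctcfl, a paralogue of the insulator gene Ctcf, had 2 counts in outer medulla replicate 4 and none in the other 4, against 5.56 to 7.46 CPM in cortex, too few counts for a ratio. Csmd1 and the potassium channel subunit gene Kcne1 were likewise at or under 3 counts in each outer medulla library.

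Of the genes with the smallest p-values, those higher in outer medulla were the transcription factor gene Foxc1 (104 to 127 CPM in outer medulla, 14.7 to 21.9 CPM in cortex, log2 fold change 2.69 ± 0.16) and the potassium channel gene Kcnk1 (2.89 ± 0.19), beside Fst and Pcsk6. Lower were the lysosomal gene Ctsa (374 to 408 CPM in outer medulla, 2086 to 3001 CPM in cortex, -2.80 ± 0.17), the serine synthesis gene Phgdh (-3.19 ± 0.20) and the lipid kinase gene Pikfyve (-1.58 ± 0.10). Their adjusted p ran from 1.3e-18 (Ctsa) to 1.39e-17 (Pcsk6 and Kcnk1).

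**Figure D2:**
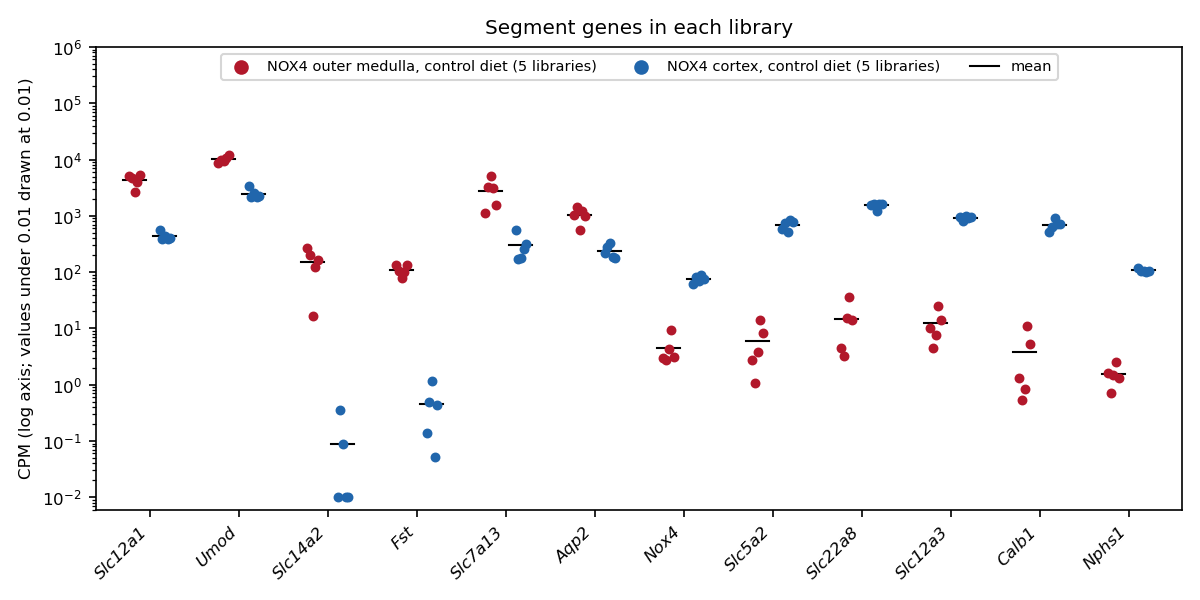
CPM on a log axis of 12 genes in each NOX4 library on the control diet, with outer medulla in red left of cortex in blue and a line at each mean. Values under 0.01 are drawn at 0.01. The groups are apart in every gene shown: Slc12a1, for example, has 2692 CPM or more in outer medulla and 569.5 CPM or less in cortex.

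The thick ascending limb, which reabsorbs salt without water, was marked more strongly in outer medulla. Of 19 markers tested, 14 were higher in outer medulla and 0 lower, with a median log2 fold change of 1.85 against 0.04 over all genes. Among all genes tested, 20% were called higher and 18.1% lower. Slc12a1, which encodes the sodium-potassium-chloride cotransporter blocked by loop diuretics, had 5050.0, 4658, 2692, 4034 and 5235 CPM in outer medulla, against 569.5, 390.2, 434, 386 and 407 CPM in cortex (log2 fold change 3.31 ± 0.23, adjusted p = 4.57e-17). Umod, which encodes uromodulin, the main protein of normal urine, had 8675, 9832, 9609, 10860.0 and 12200.0 CPM in outer medulla, against 3376, 2146, 2509, 2148 and 2230.0 CPM in cortex (2.04 ± 0.28). Outer medulla replicate 3 was lowest for Slc12a1 but not for Umod, and neither gene overlapped between the tissues. Ppp1r1b, an inhibitor of protein phosphatase 1, had 320.1 to 558 CPM in outer medulla and 10.8 to 39.3 CPM in cortex (4.62 ± 0.46). The tight junction genes Cldn19 (3.02 ± 0.22) and Cldn16 (1.66 ± 0.20), the potassium channel gene Kcnj1 (1.85 ± 0.21) and the prostaglandin receptor gene Ptger3 (1.86 ± 0.24) were also higher. The chloride channel subunit gene Bsnd, which intercalated cells use too, was not called, with 114 ± 40.1 CPM in outer medulla and 105 ± 12.6 CPM in cortex (SD, n = 5 each). Summed over the list, markers came to 15327 to 22351 CPM in outer medulla libraries and 4146 to 5773 CPM in cortex libraries.

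Promoter windows of 4 genes with large differences are shown, 2 of the thick ascending limb and 2 of the proximal tubule, as defining genes of segments that the tissues do not share alike. Each runs from 250 bases before to 50 bases after the RefSeq start of the gene, on its own strand 5′ to 3′, in the GRCr8 assembly. Capitals mark matches on either strand to 3 short motifs: GTTAAT (part of the site of the HNF1 factors), ACGTG (core of hypoxia response elements) and TGGAAA (core of the tonicity element bound by NFAT5).
Slc12a1 (chr3:132859409-132859708, plus strand): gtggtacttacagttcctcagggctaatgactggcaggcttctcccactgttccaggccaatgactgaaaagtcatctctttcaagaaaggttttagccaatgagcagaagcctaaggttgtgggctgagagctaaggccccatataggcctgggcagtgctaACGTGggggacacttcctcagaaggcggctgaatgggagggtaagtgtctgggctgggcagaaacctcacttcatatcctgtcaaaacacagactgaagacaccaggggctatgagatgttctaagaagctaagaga
Umod (chr1:183260967-183261266, minus strand): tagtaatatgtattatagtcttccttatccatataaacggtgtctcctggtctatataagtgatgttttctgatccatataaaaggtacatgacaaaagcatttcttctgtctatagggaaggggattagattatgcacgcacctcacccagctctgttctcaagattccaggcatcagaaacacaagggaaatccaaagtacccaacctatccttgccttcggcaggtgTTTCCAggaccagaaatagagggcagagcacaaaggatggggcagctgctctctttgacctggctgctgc
Slc34a1 (chr17:9238934-9239233, minus strand): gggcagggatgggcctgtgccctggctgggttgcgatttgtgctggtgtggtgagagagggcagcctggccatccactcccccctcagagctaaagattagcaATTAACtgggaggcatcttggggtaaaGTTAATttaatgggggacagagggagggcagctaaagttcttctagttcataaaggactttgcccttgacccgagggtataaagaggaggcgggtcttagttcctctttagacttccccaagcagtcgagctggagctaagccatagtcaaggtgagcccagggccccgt
Slc22a8 (chr1:214927034-214927333, plus strand): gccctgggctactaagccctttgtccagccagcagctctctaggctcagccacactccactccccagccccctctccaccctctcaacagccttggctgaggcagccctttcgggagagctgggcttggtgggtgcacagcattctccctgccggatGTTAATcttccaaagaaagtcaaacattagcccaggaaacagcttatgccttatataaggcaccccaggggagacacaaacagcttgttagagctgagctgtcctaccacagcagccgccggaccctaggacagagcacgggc

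The Slc12a1 window held ACGTG on the gene's strand, its first base 87 bases before the start. The Umod window held TGGAAA on the opposite strand, 20 bases before the start. GTTAAT stood in both proximal tubule windows, once in that of Slc22a8, which encodes an organic anion transporter, and on both strands in that of Slc34a1, the sodium-phosphate cotransporter gene. No match shown overlaps another. Of 27457 promoter windows of this length, 7.37% held GTTAAT, and of the 10780 belonging to tested genes 4.78% did. Among genes called at least 4-fold different it stood in 7.93% of 416 windows of genes higher in outer medulla and in 7.83% of 396 windows of genes lower there. ACGTG stood in 16.1% of the windows of genes at least 4-fold higher in outer medulla, 19.4% of those lower there, and 24.5% of all tested. TGGAAA stood in 20.9% of the windows of genes higher in outer medulla, 17.4% of those lower there, and 16.6% of all tested. These shares are descriptions, without a test.

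Markers of the thin limbs were higher in outer medulla too, 8 of 9 tested with 0 lower and a median of 3.77. Among all genes tested, 20% were called higher and 18.1% lower. Cryab, which encodes the small heat shock protein alpha-B crystallin, had 354, 496, 482, 470.2 and 349 CPM in outer medulla, against 42.9, 24.9, 34.6, 26.9 and 28.7 CPM in cortex (3.77 ± 0.39). Aqp1, the water channel gene of proximal tubule, thin descending limb and vasa recta, differed least of the called members. It had 1834, 2898, 2955, 2564 and 2011 CPM in outer medulla, against 1810.0, 1832, 1275, 1821 and 1761 CPM in cortex (0.53 ± 0.18, adjusted p = 0.0147). That call was lost when replicate 3 of either tissue was left out (0.45 without outer medulla replicate 3, 0.44 without cortex replicate 3). Genes of the inner medulla and urothelium, among them Upk1a, Upk2, Krt5 and Foxa1, were also called higher, 7 of 7, at a low level: their sum was 7.49 to 25.2 CPM in outer medulla and 0.62 to 1.17 CPM in cortex. Whether a trace of those tissues bears on the thin limb genes was not tested.

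**Figure D3:**
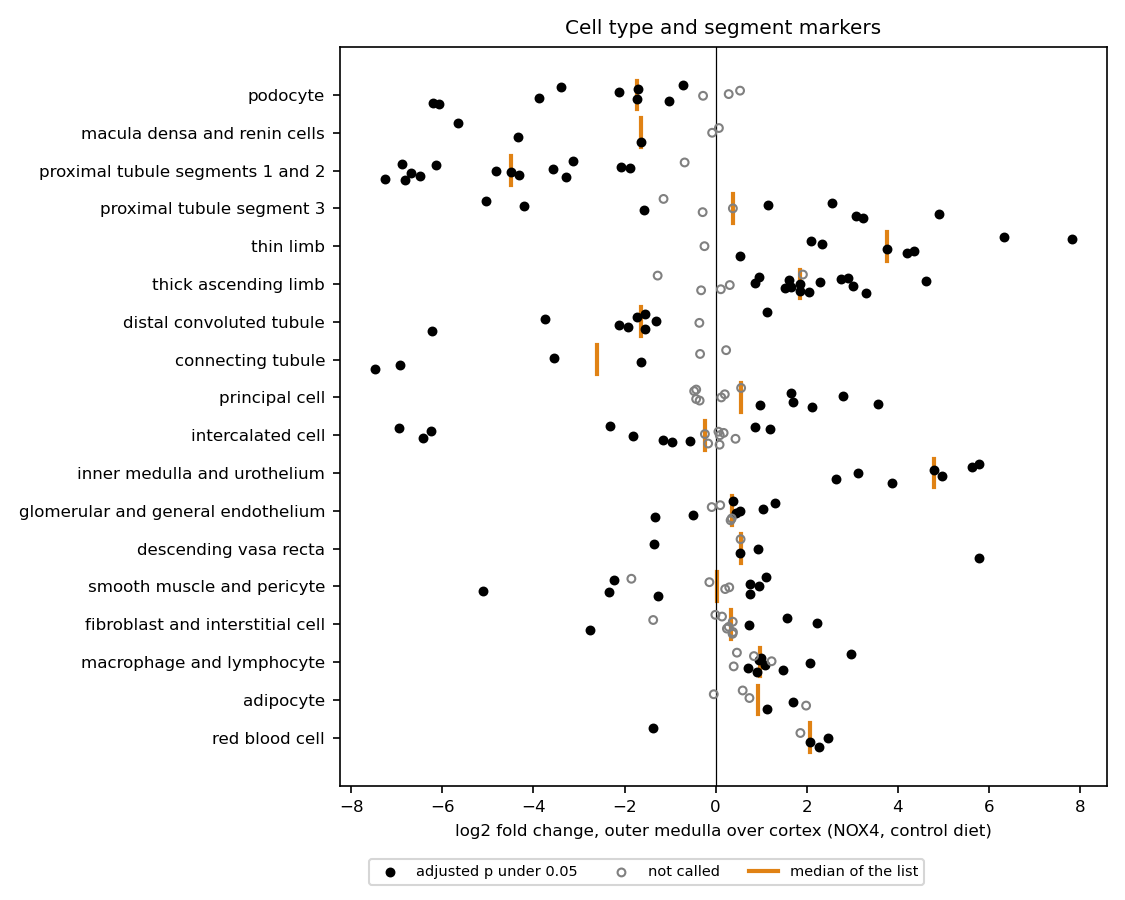
Log2 fold change of outer medulla over cortex for each tested marker of 18 cell types and segments, in NOX4 rats on the control diet. Filled points passed an adjusted p of 0.05 and orange bars are list medians, which run from -4.50 in proximal tubule segments 1 and 2 to 4.79 in inner medulla and urothelium.

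The early proximal tubule, where most filtered glucose, phosphate and amino acids are taken up, was marked far less in outer medulla. Of 15 markers of segments 1 and 2, 14 were lower in outer medulla and 0 higher, with a median of -4.50. Among all genes tested, 18.1% were called lower and 20% higher. Slc5a2, which encodes the glucose transporter SGLT2 of segment 1, had 2.77, 1.07, 3.79, 14.1 and 8.39 CPM in outer medulla, against 589.8, 747, 509, 832 and 777 CPM in cortex (-6.82 ± 0.94, adjusted p = 3.88e-08). Slc22a8 had 4.52, 3.26, 15, 36.7 and 13.9 CPM in outer medulla, against 1532, 1646, 1234, 1637 and 1619 CPM in cortex (-6.69 ± 1.08). Slc34a1 had 325, 594, 1313, 780.5 and 341 CPM in outer medulla, against 6719, 6635, 5267, 7104 and 6917 CPM in cortex (-3.28 ± 0.60). Outer medulla replicate 4 was highest for the first pair and replicate 3 for Slc34a1, and each stayed under every cortex library. The phosphate and lactate transporter genes Slc34a3 (-6.89 ± 0.89) and Slc5a12 (-7.26 ± 1.09) and the neutral amino acid transporter gene Slc6a19 (-6.48 ± 0.85) showed ratios like that of Slc5a2. The endocytic receptor genes Lrp2 (megalin, -1.88 ± 0.47) and Cubn (cubilin, -2.08 ± 0.43), which all proximal segments use, differed less. Only the urate transporter gene Slc22a12 was not called, at 339 ± 191 CPM in outer medulla and 544 ± 54.2 CPM in cortex.

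Markers of segment 3 divided. Of 11 tested, 5 were higher in outer medulla and 3 lower, beside 20% and 18.1% of all genes tested, with a median of 0.38. Slc7a13 (ENSRNOG00000024903, chromosome 5), which encodes a cystine and aspartate transporter of segment 3, had 1101, 3190.0, 5039, 3106 and 1589 CPM in outer medulla, against 567, 169, 181, 259.7 and 316 CPM in cortex (3.23 ± 0.68, adjusted p = 0.000104). Among outer medulla libraries replicate 3 was highest and replicate 1 lowest, and cortex replicate 1 was highest in its group, without reaching the outer medulla. The organic anion transporter genes Slc22a7 (3.08 ± 0.70), Slc22a13 (4.89 ± 0.83) and Slco1a6 (2.55 ± 0.57) and the sterol hydroxylase gene Cyp7b1 (1.15 ± 0.22) were higher in outer medulla. The medium-chain acyl-CoA synthetase gene Acsm3 (-5.05 ± 0.69), the cytochrome P450 gene Cyp2e1 (-4.21 ± 0.61) and the fatty acid importer gene Slc27a2 (-1.58 ± 0.43) were lower. Cyp2e1 had 8.73 to 32.3 CPM in outer medulla and 215 to 372 CPM in cortex. The glucose transporter gene Slc5a1 was not called (9.09 to 50.6 CPM in outer medulla, 28.4 to 41 CPM in cortex). Summed over the list, the markers came to 2208, 5085, 7949, 4922 and 2846 CPM in outer medulla and 3087, 2397, 1870.1, 2654 and 2698 CPM in cortex, and these sums overlapped between the tissues.

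Genes of the glomerulus were low in outer medulla. Of 12 podocyte markers 9 were lower there and 0 higher, beside 18.1% and 20% of all genes tested, with a median of -1.72. Nphs1, which encodes nephrin of the slit diaphragm, had 1.59, 0.711, 1.48, 2.53 and 1.32 CPM in outer medulla, against 119, 105, 106, 99.7 and 105 CPM in cortex (-6.08 ± 0.81). Without replicate 3 of both tissues, 8 podocyte markers were lower and 2 higher. Of 5 macula densa and renin cell genes 3 were lower, Pappa2 and Nos1 among them, and 0 higher. Pappa2 averaged 0.0524 CPM in outer medulla and 1.31 CPM in cortex, and Ptgs2 was not called.

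The distal convoluted and connecting tubules were also marked mainly in cortex. Of 10 markers of the distal convoluted tubule, 8 were lower in outer medulla and 1 higher (median -1.64). Among all genes tested, 18.1% were called lower and 20% higher. Slc12a3, which encodes the thiazide-sensitive sodium-chloride cotransporter, had 10.3, 4.5, 7.57, 24.9 and 14 CPM in outer medulla, against 941, 809.6, 991, 929.5 and 971 CPM in cortex (-6.23 ± 0.70). Wnk1, a kinase gene that controls this cotransporter, was lower (-2.12 ± 0.14). Stk39, the kinase that acts on both Slc12a3 and Slc12a1 proteins, was the 1 member higher in outer medulla, with 61.7 to 123 CPM in outer medulla and 40.0 to 51 CPM in cortex (1.13 ± 0.18). Of 6 connecting tubule markers 4 were lower and 0 higher (median -2.59). They were Calb1, the calcium channel gene Trpv5 (-6.92 ± 0.78), the sodium-calcium exchanger gene Slc8a1 (-3.55 ± 0.34) and S100g (-1.64 ± 0.62). Trpv5 reads were few in outer medulla, with 1.01 CPM in replicate 4 and at most 0.204 CPM in any other library.

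In the collecting duct, of 13 principal cell markers 6 were higher in outer medulla and 0 lower (median 0.56). Among all genes tested, 20% were called higher and 18.1% lower. Aqp2, the vasopressin-regulated water channel gene, had 1026, 1457, 549, 1219 and 999.5 CPM in outer medulla, against 222, 278, 334, 187 and 182 CPM in cortex (2.13 ± 0.29). Aqp4, the basolateral water channel gene, had 39 to 88.5 CPM in outer medulla and 4.89 to 7.48 CPM in cortex (3.57 ± 0.37), and the vasopressin receptor gene Avpr2 (1.70 ± 0.22) and the pump regulator gene Fxyd4 (2.79 ± 0.38) were higher too. Replicate 3 was the lowest outer medulla library for Aqp2, Aqp4 and Fxyd4. The 3 subunit genes of the epithelial sodium channel were not called. Scnn1a had 121, 52.9, 73.5, 77 and 136 CPM in outer medulla and 125, 98.8, 142, 106 and 115 CPM in cortex, and Scnn1b and Scnn1g had log2 fold changes of -0.43 ± 0.22 and 0.12 ± 0.21. Of 17 intercalated cell markers 2 were higher in outer medulla and 8 lower (median -0.24). Genes of the base-secreting type were among the lower ones. Slc26a4 (pendrin) had 0.514, 0.533, 1.69, 2.56 and 1.48 CPM in outer medulla, against 125, 116, 153, 106 and 115 CPM in cortex (-6.43 ± 0.64), and its transcription factor gene Hmx2 (-6.26 ± 0.79) and the alkali sensor gene Insrr (-6.95 ± 0.72) followed. Aqp6, a vesicle channel gene of acid-secreting cells, was higher (1.20 ± 0.19), and Slc4a1, their chloride-bicarbonate exchanger gene, was not called (264 to 501 CPM in outer medulla, 246 to 346 CPM in cortex).

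Among vessels, stroma and blood, directions were mixed. The counts of each list stand beside 20% of all genes tested called higher and 18.1% called lower. Of 11 endothelial genes 5 were higher in outer medulla and 2 lower. Plvap, a gene of fenestrated endothelium, had 309 to 445 CPM in outer medulla and 162 to 229 CPM in cortex (1.03 ± 0.14), while the VEGF receptor gene Kdr had 44 to 71.7 CPM in outer medulla and 131 to 156 CPM in cortex (-1.33 ± 0.16). Of 5 genes of descending vasa recta 3 were higher and 1 lower. Of 12 smooth muscle and pericyte genes 4 were higher, the pericyte gene Cspg4 (1.11 ± 0.22) among them, and 4 were lower, among them the smooth muscle myosin gene Myh11 (-2.35 ± 0.39) and Cnn1 (-5.11 ± 0.83). Of 12 fibroblast genes 3 were higher and 1 lower, beside 20% and 18.1% of all genes tested. Of 12 macrophage and lymphocyte genes 8 were higher and 0 lower, with a median of 0.97. Csf1r, the macrophage growth factor receptor gene, had 204, 205, 206, 200.0 and 201 CPM in outer medulla, against 70.6, 68.4, 88.2, 67 and 72.8 CPM in cortex (1.47 ± 0.17), and the leukocyte gene Ptprc followed (1.08 ± 0.21). The globin gene Hbb, of a cluster of similar copies that may share reads, had 120.4 to 275 CPM in outer medulla and 36.6 to 51.7 CPM in cortex (2.27 ± 0.48), and 3 of 5 red cell genes were higher with 1 lower. Of 6 adipocyte genes 2 were higher, Adipoq (1.12 ± 0.24) and Cidec (1.70 ± 0.58, lost at 1.39 without outer medulla replicate 3), and 0 lower. The sums of the leukocyte list were 408 to 429.8 CPM in outer medulla and 168 to 233 CPM in cortex, and those of the red cell list 434 to 936 CPM in outer medulla and 157 to 221 CPM in cortex. How far blood and leukocytes in the pieces bear on other genes was not tested.

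Of 9 members of the NADPH oxidase family tested 4 were higher in outer medulla and 2 were lower, beside 20% and 18.1% of all genes tested, and the median was 0.97. Nox4 and Cyba, which encodes the membrane partner p22phox that NOX4 and NOX2 share, were the lower pair. Cyba had 55.4, 50.5, 47.4, 63.5 and 56.4 CPM in outer medulla, against 243, 279.8, 246, 245 and 255 CPM in cortex (-2.22 ± 0.21, adjusted p = 2.61e-12). Cybb, the catalytic subunit gene of the phagocyte oxidase NOX2, had 136, 127, 126, 123 and 125 CPM in outer medulla, against 56.5, 53.6, 65.5, 54.4 and 58.8 CPM in cortex (1.14 ± 0.20). The phagocyte oxidase genes Ncf1 (0.97 ± 0.28), Ncf4 (1.24 ± 0.25) and Rac2 (1.06 ± 0.25) were higher as well, with no overlap between the libraries for Cybb, Ncf4 and Rac2. Leukocyte markers, given above, were higher in the same libraries, and their part in these genes was not tested. Nox1, Noxo1, Noxa1, Duox1, Duox2 and Duoxa2 did not pass the filter on low counts.

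Among genes that remove peroxide and superoxide, 11 of 26 were lower in outer medulla and 5 higher (median -0.37), beside 18.1% and 20% of all genes tested. Gpx3, which encodes the glutathione peroxidase that proximal tubule secretes into plasma, had 619.8, 742, 1502, 1521 and 728 CPM in outer medulla, against 34690.0, 38580.0, 32770.0, 41330.0 and 39830.0 CPM in cortex (-5.19 ± 0.58). Gpx1 was lower (-2.34 ± 0.17), as were Sod3 (-1.93 ± 0.32) and catalase, Cat (-1.02 ± 0.34). Higher in outer medulla were both subunit genes of the enzyme that starts glutathione synthesis, Gclc (2459, 5680.0, 10130.0, 5254 and 3213 CPM in outer medulla, 2389, 855, 856, 1086 and 1424 CPM in cortex, 2.02 ± 0.58) and Gclm (1.51 ± 0.45). Both calls were lost without replicate 3 of both tissues (1.53 and 1.09), and Gclc, like Slc7a13, was highest in replicate 3 and lowest in replicate 1 of the outer medulla. The quinone reductase gene Nqo1 was higher with no overlap between libraries (11 to 26.5 CPM in outer medulla, 3.3 to 5.78 CPM in cortex, 2.07 ± 0.27).

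Of 31 nuclear genes of complex I 7 were lower and 0 higher (median -0.17), beside 18.1% of all genes tested called lower. Of 37 nuclear genes of complexes II to V 18 were lower and 0 higher (median -0.31), with Atp5b, the ATP synthase beta subunit gene, at -0.47 ± 0.11. Without replicate 3 of both tissues 12 were lower. Of 11 mitochondrially encoded genes 6 were lower and 0 higher, with Mt-co1 at 32030.0 to 41210.0 CPM in outer medulla and 52720.0 to 61890.0 CPM in cortex (-0.63 ± 0.13). Of 27 genes of the tricarboxylic acid cycle and pyruvate entry 20 were lower and 0 higher (median -0.52). Suclg2, a subunit of the GTP-forming succinate-CoA ligase, had 239.6 to 269 CPM in outer medulla and 517 to 609 CPM in cortex (-1.16 ± 0.13), and Pc, pyruvate carboxylase, had -2.24 ± 0.35. The share of all counts in mitochondrial transcripts was 10.2% to 12.6% in outer medulla and 12.4% to 15.9% in cortex.

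Of 31 fatty acid oxidation and ketone genes 21 were lower in outer medulla and 4 higher (median -0.67). The thiolase gene Acaa2, of the last step of beta-oxidation, had 114, 111, 85, 121 and 119 CPM in outer medulla, against 462, 534, 414, 488 and 507 CPM in cortex (-2.13 ± 0.15), with outer medulla replicate 3 lowest. Cpt1b, the muscle form of the carnitine transferase that admits fatty acids to mitochondria, went the other way, with 42.7 to 104 CPM in outer medulla and 9.18 to 12.7 CPM in cortex (2.86 ± 0.26). Of 20 glycolysis genes 8 were higher and 5 lower, beside 20% and 18.1% of all genes tested. Hexokinase, Hk1 (1.86 ± 0.17), the platelet phosphofructokinase gene Pfkp (2.31 ± 0.23) and pyruvate kinase, Pkm (1.62 ± 0.14), which catalyse the steps that glycolysis cannot reverse, were higher. Gapdh (-0.94 ± 0.11) and Eno1 (-1.01 ± 0.14), whose steps gluconeogenesis also uses, were lower. Pkm had 659.9, 617, 453, 629 and 602 CPM in outer medulla, against 206, 160.2, 234, 184 and 182 CPM in cortex.

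Of 11 gluconeogenesis and fructose genes 7 were lower in outer medulla and 1 higher (median -2.35). Pck1, the first committed enzyme of gluconeogenesis, had 144, 146, 334, 312 and 196 CPM in outer medulla, against 8093, 10090.0, 7575, 8830.0 and 9191 CPM in cortex (-5.27 ± 0.73), followed by Fbp1 (-2.63 ± 0.49). The fructose transporter gene Slc2a5 was the 1 higher member (1.22 ± 0.47), with overlapping libraries, and lost its call when any of 7 libraries was left out, down to 0.99 without outer medulla replicate 3. Of 35 genes of amino acid, arginine, creatine and ammonia metabolism 21 were lower and 3 higher (median -1.27). Gatm, which starts creatine synthesis, had 157 to 613 CPM in outer medulla and 6893 to 9450.0 CPM in cortex (-4.55 ± 0.71). Ass1, of arginine synthesis, was lower (-3.29 ± 0.44). The higher ones were Odc1, ornithine decarboxylase (651, 1063, 1930.0, 1250.0 and 923 CPM in outer medulla, 326, 135, 164, 179 and 254 CPM in cortex, 2.46 ± 0.42), the mitochondrial arginase gene Arg2 (1.60 ± 0.35) and the glutamine transporter gene Slc38a3 (1.46 ± 0.52, lost at 1.09 without outer medulla replicate 3). Of 19 organic anion and cation transporter genes 7 were lower and 5 higher, beside 18.1% and 20% of all genes tested.

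**Figure D4:**
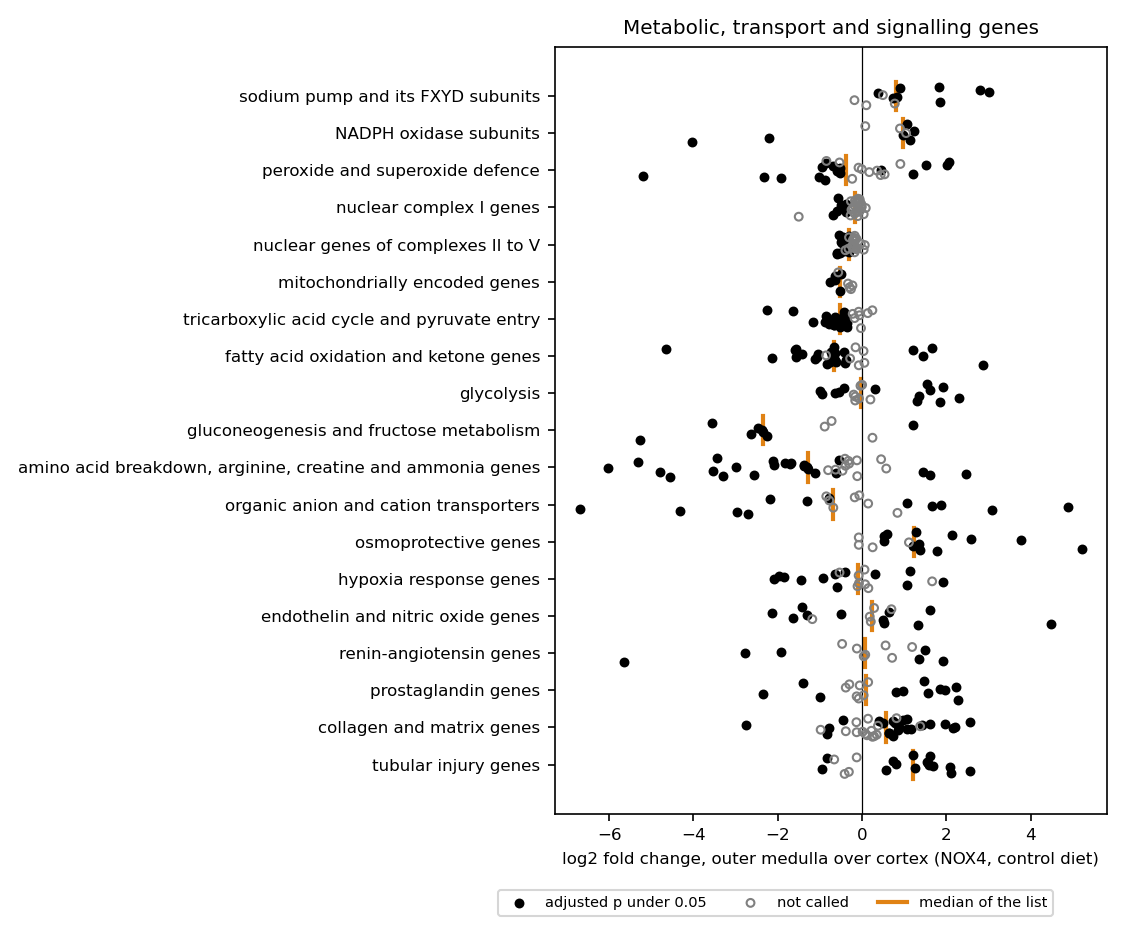
Log2 fold change of outer medulla over cortex for each tested gene of 19 metabolic, transport and signalling lists, in NOX4 rats on the control diet. Filled points passed an adjusted p of 0.05 and orange bars are list medians, from -2.35 for gluconeogenesis and fructose metabolism to 1.24 for osmoprotective genes.

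Of 12 pump and FXYD genes 8 were higher in outer medulla and 0 lower, beside 20% and 18.1% of all genes tested. Summed over the list, they overlapped between the tissues, at 9890 to 13919 CPM in outer medulla and 10960 to 11915 CPM in cortex. The beta subunit gene Atp1b1 was not called (-0.18 ± 0.16). The regulatory subunit gene Fxyd6 had 216 to 388 CPM in outer medulla and 79.8 to 98.8 CPM in cortex (1.83 ± 0.18), and Fxyd3 had 3.00 ± 1.21. Fxyd2, the gamma subunit gene, was called at 0.37 ± 0.13 with overlapping libraries, and lost its call without outer medulla replicate 1, 2 or 4 (0.31 to 0.33).

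Genes that protect cells against high osmolality were higher, 12 of 16 with 0 lower and a median of 1.24. Nfat5, the transcription factor of this response, had 423, 458, 365, 381 and 532 CPM in outer medulla, against 113, 127, 132, 135 and 125 CPM in cortex (1.77 ± 0.19). Slc6a12, the betaine transporter gene, had 75.6, 109, 43, 73.5 and 56.8 CPM in outer medulla, against 2.48, 2.29, 2.4, 1.18 and 1.38 CPM in cortex (5.22 ± 0.44). Akr1b1, the aldose reductase gene that makes sorbitol, was higher (1.38 ± 0.21), and the taurine transporter gene Slc6a6 was not called (0.25 ± 0.24). Of 20 hypoxia response genes 4 were higher and 8 lower (median -0.09), beside 20% of all genes tested called higher and 18.1% lower. The glucose transporter gene Slc2a1 (1.92 ± 0.16) and the oxygen sensor gene Egln3 (1.08 ± 0.23) were higher, while Ndrg1 (-2.08 ± 0.33) and the vasodilator gene Adm (-1.85 ± 0.27) were lower, and Hif1a was not called (0.15 ± 0.11).

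Of 16 endothelin and nitric oxide genes 6 were higher in outer medulla and 5 lower, beside 20% and 18.1% of all genes tested. Edn3, an endothelin gene, had 62, 37.3, 24.4, 54.8 and 59 CPM in outer medulla, against 2.07, 1.22, 2.49, 2.25 and 2.32 CPM in cortex (4.50 ± 0.42), and Edn1, at a lower level, had 3.9 to 5.56 CPM in outer medulla and 1.18 to 2.8 CPM in cortex (1.34 ± 0.35). Ddah1, which degrades an inhibitor of nitric oxide synthases, was lower (-2.13 ± 0.44). Of 13 renin-angiotensin genes 3 were higher and 3 lower, shares near those of all genes tested (20% higher and 18.1% lower). The precursor gene Agt had 45, 82.9, 145, 87.9 and 45.4 CPM in outer medulla and 47.4, 10.4, 12.8, 15.2 and 21.3 CPM in cortex (1.93 ± 0.54), where cortex replicate 1 overlapped the outer medulla. The peptidase gene Mme was higher (1.49 ± 0.37) and Enpep lower (-1.91 ± 0.40), and the receptor genes Agtr1a (0.04 ± 0.18) and Agtr1b (0.08 ± 0.24) were not called. Of 18 prostaglandin genes 8 were higher and 3 lower, with cyclooxygenase 1, Ptgs1, at 26.2 to 60.2 CPM in outer medulla and 8.0 to 13.1 CPM in cortex (2.29 ± 0.25). Cyclooxygenase 2, Ptgs2, had 6.32, 10.2, 13.6, 3.57 and 6.0 CPM in outer medulla and 5.65, 8.25, 12.8, 7.48 and 7.52 CPM in cortex and was not called. The prostaglandin D synthase gene Ptgds was lower (-2.35 ± 0.24).

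Of 38 collagen and matrix genes 19 were higher in outer medulla and 4 lower (median 0.56), beside 20% and 18.1% of all genes tested. Fn1, which encodes fibronectin, had 512, 392, 543, 404 and 703 CPM in outer medulla, against 124, 94.2, 140.4, 95.1 and 118 CPM in cortex (2.16 ± 0.26), followed by the proteoglycan genes Bgn (1.42 ± 0.21) and Vcan (1.98 ± 0.25) and by Tnc (2.22 ± 0.39). Col3a1 had overlapping libraries (0.73 ± 0.29, adjusted p = 0.0382) and lost its call without any of 5 libraries. Of 19 genes known from tubular injury 13 were higher and 2 lower, beside the same shares of all genes tested. Spp1, which encodes osteopontin, a protein that the loop of Henle also makes in healthy kidney, had 1903, 2473, 1884, 1870.0 and 1953 CPM in outer medulla, against 299, 349.8, 611, 174 and 276 CPM in cortex (2.56 ± 0.33). Lcn2 had 16.1 to 25.7 CPM in outer medulla and 2.61 to 6.85 CPM in cortex (2.11 ± 0.33), and the repair factor gene Sox9 had 1.68 ± 0.38. Havcr1, the proximal injury marker, was not called (2.11, 7.7, 16.4, 3.47 and 3.56 CPM in outer medulla, 7.3, 9.39, 18.6, 1.23 and 7.72 CPM in cortex).

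Whether the outer medulla differed from cortex in the knockout line as it did in its parent strain was tested as an interaction on the control diet. It was called for 1046 of 16326 genes (6.41%), 847 with a tissue difference shifted towards outer medulla in NOX4 (5.19%) and 199 shifted towards cortex (1.22%). DESeq2 called 1001 and 410, so that 80.98% of calls were towards outer medulla in edgeR and 70.94% in DESeq2. All SS libraries have lower library numbers in the labels than all NOX4 libraries, so strain and library order cannot be told apart. The count fell to 581 without NOX4 outer medulla replicate 3, and to 413 without replicate 3 of both NOX4 tissues. It was 654 without the 11 SS libraries that had fewer than 17000 genes with a count, 6 of them on the control diet, a setting also chosen after seeing the data. Of those 654 genes, only 440 were among the 1046 called with all libraries.

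The interaction was called towards outer medulla for 7 of 11 segment 3 markers and towards cortex for 0, with a median of 2.23 against 0.01 over all genes tested and 5.19% of all genes called that way. It was called for 4 of these without replicate 3 of both NOX4 tissues, and for 5 without the SS libraries of few genes. Slc7a13 averaged 2805 ± 1550.0 CPM in NOX4 outer medulla and 298 ± 161 CPM in NOX4 cortex, against 843 ± 434 CPM in SS outer medulla and 2420.0 ± 728 CPM in SS cortex (SD, n = 5 each). In NOX4 every outer medulla library lay above every cortex library, and in SS every one lay below. The interaction was 4.75 ± 0.92 (log2, SE, adjusted p = 0.000836). Slco1a6 (4.15 ± 0.80), Slc22a7 (4.83 ± 0.96) and Slc22a13 (5.53 ± 1.07) were called too. Slc5a1 was called at 2.23 ± 0.58, and lost its call without NOX4 outer medulla replicate 3 (1.89), without replicate 3 of both NOX4 tissues (1.92) and without the SS libraries of few genes (1.95). Summed segment 3 markers were 2208 to 7949 CPM in NOX4 outer medulla and 1870.1 to 3087 CPM in NOX4 cortex, against 689.8 to 2401 CPM in SS outer medulla and 4773 to 7038 CPM in SS cortex.

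**Figure D5:**
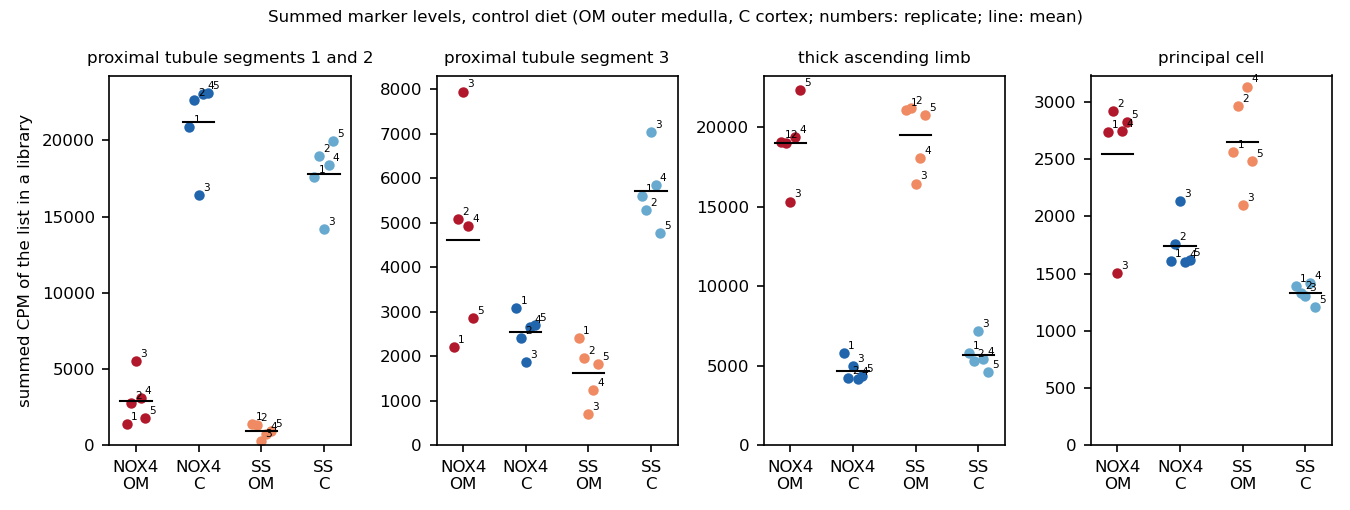
Summed CPM of 4 marker lists in each library on the control diet, for outer medulla (OM) left of cortex (C) in NOX4 and then in SS, with the replicate number at each point and a line at the mean. Segment 3 sums reach 7949 CPM in NOX4 outer medulla and 7038 CPM in SS cortex, while thick ascending limb sums are 15327 to 22351 CPM in NOX4 outer medulla and 4146 to 5773 CPM in NOX4 cortex.

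The interaction was called towards outer medulla for 12 of 35 amino acid genes and towards cortex for 1 (median 1.49), for 8 of 19 organic anion and cation transporters (towards cortex 0, median 1.53) and for 4 of 26 peroxide and superoxide genes (towards cortex 0). Without replicate 3 of both NOX4 tissues these were 3, 5 and 3 genes. In the fit of all libraries, 5.19% of all genes tested were called towards outer medulla and 1.22% towards cortex. Gclc averaged 5347 ± 2996 CPM in NOX4 outer medulla and 1322 ± 640.3 CPM in NOX4 cortex, against 1686 ± 867 CPM in SS outer medulla and 6644 ± 1380.0 CPM in SS cortex (3.99 ± 0.82, adjusted p = 0.00138). Agt had 81.3 ± 41.1 CPM in NOX4 outer medulla and 21.4 ± 15.1 CPM in NOX4 cortex, against 21 ± 8.89 CPM in SS outer medulla and 83.3 ± 18 CPM in SS cortex (3.92 ± 0.76). Gclm (3.29 ± 0.64), Odc1 (3.62 ± 0.59), Slc38a3 (3.60 ± 0.74), Slc2a5 (3.24 ± 0.67), Mme (2.52 ± 0.52), Cidec (3.88 ± 0.83) and Sox9 (2.64 ± 0.54) went the same way. Segment 3 markers moved with them in the same libraries, and their part in these genes was not tested.

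For thick ascending limb genes the interaction was called towards outer medulla for 2 of 19 (towards cortex 0, median 0.23). For thin limb genes it was called for 3 of 9 (towards cortex 0, median 0.53). Over all genes tested 5.19% were called towards outer medulla and 1.22% towards cortex. For Slc12a1 the interaction was 0.51 ± 0.29 (adjusted p = 0.338) and for Umod 0.43 ± 0.38 (adjusted p = 0.569), and neither was called. The thick ascending limb count was 1 without replicate 3 of both NOX4 tissues and 1 without the SS libraries of few genes. The thin limb count was 2 and 1 in these settings, and its median turned to -0.21 without the SS libraries of few genes. Among the medullary genes called were Ppp1r1b, with 440.0 ± 84.9 CPM in NOX4 outer medulla and 18 ± 12 CPM in NOX4 cortex, against 261 ± 44.3 CPM in SS outer medulla and 76.1 ± 27.7 CPM in SS cortex (2.84 ± 0.58), Cryab (2.87 ± 0.51), Aqp1 (0.80 ± 0.25) and Fst (3.07 ± 0.63). The calls of Aqp1 (0.70) and Fst (1.97) were lost without the SS libraries of few genes, and that of Aqp1 in many other fits. Nox4 itself had an interaction of 1.36 ± 0.62, not called (adjusted p = 0.197). For the markers of segments 1 and 2, 1 of 15 was called, Slc22a12 (2.38 ± 0.67, lost at 2.02 without NOX4 outer medulla replicate 3). Their median interaction was nevertheless 1.36, against 0.01 over all genes tested, so it lay towards outer medulla as for segment 3. Their summed markers averaged 2890 CPM in NOX4 outer medulla and 21237 CPM in NOX4 cortex, against 911 CPM in SS outer medulla and 17820 CPM in SS cortex.

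Among called genes with a symbol and at least 5 CPM in 1 of the 4 groups, the largest positive interactions were those of Car15, Muc13, Olr1668, Sult4a1 and Dmrtc1c1. Car15, a carbonic anhydrase gene, had 0.103, 14.3, 0.288, 0.0649 and 0 CPM in NOX4 outer medulla, nearly all in replicate 2, against 4.89, 3.16, 2.71, 0.41 and 2.6 CPM in NOX4 cortex. No SS outer medulla library had a Car15 count, SS cortex had 0.469 to 25.8 CPM, and no ratio is given. Muc13, a mucin gene, had 2.21 to 9.47 CPM in NOX4 outer medulla and 0 to 0.118 CPM in NOX4 cortex, against 0.92 to 3.12 CPM in SS outer medulla and 1.02 to 8.05 CPM in SS cortex. The NOX4 cortex libraries held too few Muc13 counts for a ratio. Olr1668, of the olfactory receptor family (6.39 ± 1.10), and the sulfotransferase gene Sult4a1 (6.13 ± 1.02) followed. Dmrtc1c1 had 0.0509 to 1.44 CPM in NOX4 outer medulla and 3.73 to 11.5 CPM in NOX4 cortex, against 0 to 0.0459 CPM in SS outer medulla and 6.24 to 12.6 CPM in SS cortex. Towards cortex went Gorasp2 (-6.18 ± 1.94), Angptl7 (-3.36 ± 0.95), Brd2 (-3.16 ± 0.93), Ppp2r2c (-2.38 ± 0.45) and the matrix protease gene Mmp9 (-2.26 ± 0.49). Gorasp2 and Brd2 varied from library to library within NOX4 cortex, with 12, 13.5, 0.40, 15.2 and 7.87 CPM for Gorasp2 and 8.96, 2.22, 21.8, 2.46 and 2.24 CPM for Brd2. Mmp9 had 0.36 to 1.02 CPM in NOX4 outer medulla and 6.6 to 15.3 CPM in NOX4 cortex, against 0.778 to 2.24 CPM in SS outer medulla and 3.54 to 7.11 CPM in SS cortex. Among the called genes of smaller interaction were Phgdh (-0.89 ± 0.26), Pcsk6 (1.65 ± 0.47), Wnk1 (-0.60 ± 0.19) and Krt19 (2.56 ± 0.43). Without the SS libraries of few genes, the calls of Phgdh, Pcsk6, Wnk1, Krt19, Gorasp2, Brd2, Ppp2r2c, Mmp9, Car15 and Dmrtc1c1 were lost, and that of Angptl7 was lost without NOX4 outer medulla replicate 3.

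Whether 21 days of salt altered the tissue difference in NOX4 rats was tested in the same way, and edgeR called 0 of 16326 genes (0%), with 125 at an unadjusted p under 0.05. That is fewer than chance alone gives at this threshold, so the test was conservative here, and 0 calls do not show an unchanged tissue difference. With only the groups compared, edgeR called 0 of 15361 genes, with 610 at an unadjusted p under 0.05 and a lowest adjusted p of 0.0973. DESeq2 called 0 and limma voom 15, with 136 and 1656 at an unadjusted p under 0.05. Nox4 had 4.61 ± 1.83 CPM in outer medulla and 74.7 ± 8.77 CPM in cortex after 21 days, and an interaction of 0.01 ± 0.63. Slc7a13 had 1502 to 3494 CPM in outer medulla and 89.5 to 552 CPM in cortex after 21 days, with an interaction of 0.29 ± 0.88. Slc12a1 had 2109 to 4321 CPM in outer medulla and 337 to 456 CPM in cortex (-0.16 ± 0.29). For Aqp2, with 1157 ± 389 CPM in outer medulla and 440.5 ± 74.9 CPM in cortex after 21 days (SD, n = 5 each), it was -0.73 ± 0.39 (unadjusted p = 0.0671), and for Spp1, with 3534 ± 1131 CPM in outer medulla and 1031 ± 653 CPM in cortex, it was -0.78 ± 0.43 (unadjusted p = 0.0779).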

How the data were processed

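RNA of snap-frozen tissue was made into poly(A)-enriched libraries, per the labels' protocols. HISAT2 2.0.5, StringTie 1.3.3b and featureCounts 1.5.0-p3 are named in the submitters' processing notes. The genome build and the strand setting are not given in the sources used here. The deposited table holds whole-number read counts per gene and, per the file headers, FPKM values, which were not used. Counts of 60 libraries (11.5 M to 29.6 M each) in 12 groups were fitted with edgeR 4.0.16 in R 4.3.3: filterByExpr, TMM scaling and the quasi-likelihood F test, with Benjamini-Hochberg adjustment over 16326 genes and calls at an adjusted p under 0.05. Errors of log2 fold changes are standard errors. CPM (counts per 1000000) use TMM-scaled library sizes. The filter keeps genes counted in the smallest group size, so a gene may be tested through 1 tissue alone. DESeq2 1.42.0 (Wald test), limma 3.58.1 (voom with quality weights), other filters and left-out libraries were alternatives. Code was checked on simulated data.

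The comparison, the 37 lists (638 entries, 613 matched to a symbol in the table, 596 tested) and the tests were chosen with earlier results of these data known. Genes named over all genes were the 12 highest, the 12 lowest and the 4 smallest p-values in each direction among called genes with a symbol, a mean of at least 5 CPM in 1 tissue and no overlap, and the 5 highest and 5 lowest called genes of each interaction. Within lists, up to 4 called members with the smallest p-values in each direction could be named, and further members to describe a list. Some genes that met these rules are not reported here. Promoter windows come from RefSeq, GRCr8. Totals of this depth make counting error small beside the spread between libraries for all but the lowest genes.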

Additional observations from a re-analysis of the deposited data

Results flagged for a closer look

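Of 360 groups of 5 values examined (genes and summed lists in outer medulla and in cortex), 40 held a library far from the other 4 by Dixon's criterion, where chance flags about 1 in 20 groups. The summed macula densa and renin cell list was not among the groups examined. Its cortex sums were 65.7, 72.4, 120.5, 54 and 56.6 CPM in replicates 1 to 5, so replicate 3 stood far above the others there too. Outer medulla replicate 4 stood apart with 9.18 CPM for Nox4, 0.0649 CPM for Ctcfl, 19.2 CPM for Klk1c9, 1.01 CPM for Trpv5 and 408 CPM for Ctsa. Outer medulla replicate 3 stood apart with 39 CPM for Aqp4, 72 CPM for Esam, 85 CPM for Acaa2 and 453 CPM for Pkm. In summed CPM outer medulla replicate 3 stood apart with 1505 CPM for the principal cell list. Outer medulla replicate 2 stood apart with 14.3 CPM for Car15 and 2473 CPM for Spp1. Outer medulla replicate 1 stood apart with 6.37 CPM for Gorasp2 and 136 CPM for Cybb. Cortex replicate 3 stood apart with 1074 CPM for Klk1c9, 1234 CPM for Slc22a8, 249 CPM for Kcnj1, 1275 CPM for Aqp1, 5267 CPM for Slc34a1, 88.2 CPM for Csf1r, 6.8 CPM for Ncf4, 22.7 CPM for Adm and 962 CPM for Ddah1. In summed CPM cortex replicate 3 stood apart with 1378 CPM for the thin limb list, 2138 CPM for the principal cell list, 2760.3 CPM for the intercalated cell list, 1278 CPM for the glomerular and general endothelium list, 1326 CPM for the descending vasa recta list, 233 CPM for the macrophage and lymphocyte list, 7154 CPM for the fatty acid oxidation and ketone genes list, 4999 CPM for the organic anion and cation transporters list and 1383 CPM for the endothelin and nitric oxide genes list. Cortex replicate 1 stood apart with 11.5 CPM for Dmrtc1c1, 569.5 CPM for Slc12a1, 39.3 CPM for Ppp1r1b, 6.27 CPM for Slc22a7, 30.9 CPM for Cidec, 44.5 CPM for Slc2a5 and 11.2 CPM for Krt19. Cortex replicate 2 stood apart with 0.359 CPM for Slc14a2.

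For 33 genes named in the report, the difference of outer medulla over cortex was not the same in NOX4 as in SS rats on the control diet, by the edgeR interaction test given there. In log2 units of NOX4 minus SS, the differences among segment 3 markers were Slc22a13 5.53, Slc22a7 4.83, Slc7a13 4.75, Slco1a6 4.15 and Slc5a1 2.23. Other genes with a positive difference were Muc13 7.55, Olr1668 6.39, Sult4a1 6.13, Gclc 3.99, Agt 3.92, Cidec 3.88, Odc1 3.62, Slc38a3 3.60, Gclm 3.29 and Slc2a5 3.24, and further Fst 3.07, Cryab 2.87, Ppp1r1b 2.84, Sox9 2.64, Krt19 2.56, Mme 2.52, Slc22a12 2.38, Pcsk6 1.65 and Aqp1 0.80. Negative differences were Phgdh -0.89, Gorasp2 -6.18, Angptl7 -3.36, Brd2 -3.16, Ppp2r2c -2.38, Mmp9 -2.26 and Wnk1 -0.60. Fitted values of 10.31 for Car15 and 5.93 for Dmrtc1c1 rest on SS outer medulla libraries with at most 1 count and depend on the prior count of the fit. The fitted value of 7.55 for Muc13 likewise rests on NOX4 cortex libraries with at most 3 counts.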

How the results depend on the processing

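The number of genes that differed between outer medulla and cortex in NOX4 was 6224, and 5537 to 6182 without 1 of the 10 libraries. It was 10137 with limma voom. The count also depended on libraries outside the comparison. It was 8161 when only the 10 libraries compared were fitted, 7964 with only the NOX4 libraries and 8367 without the SS libraries of few genes. Of the 6224 genes, 5891, 6085 and 6221 were called in these 3 fits. The strain interaction count, 1046, ran from 581 to 1328 without 1 library. It was 413 without replicate 3 of both NOX4 tissues, 654 without the SS libraries of few genes and 1728 with limma voom. The diet interaction had 0 calls without any 1 library, 1 with the replicate number as a block in the groups compared, and 15 with limma voom. The labels do not say that a replicate number marks an animal. Outer medulla and cortex libraries of one number carry consecutive library numbers in the 2 groups compared, which the labels leave unexplained, and same-numbered outer medulla and cortex libraries did not deviate together, with correlations of -0.0019, 0.0356, -0.1522, 0.0126 and 0.0408 for numbers 1 to 5. With the replicate block over 60 libraries the counts were 6140 for the tissue difference and 853 for the strain interaction, and with the replicate block in only the groups compared they were 7507 and 970. For Nox4 alone the block allowed 32 sign flips and gave an exact p of 0.0625, the smallest they can give. Among list medians, the thin limb moved to 3.04 and the organic anion and cation transporters to -0.43 when only the groups compared were fitted. Without replicate 3 of both tissues the descending vasa recta moved to 0.74, macrophages to 1.11 (over the 12 members tested with all libraries), adipocytes to 1.10, the sodium pump to 0.93, NADPH oxidase to 1.10 and glycolysis to 0.10, which reversed its sign. Segment 3 stood at 0.11, against 0.38 with all libraries, and the intercalated cell list at -0.068, against -0.24. Of 144 genes followed for the tissue difference, 126 kept direction and call under every alternative, as did 18 of 33 for the strain interaction. Reversals concerned 4 genes that were not called. Car15 gave -2.41 with the block in the groups compared, -2.74 with the block over all libraries and -1.73 with voom. Without 1 library, Car15 ran from -4.48 to 0.41, Bsnd from -0.034 to 0.29, Ptgs2 from -0.37 to 0.13 and Havcr1 from -1.09 to 0.067. Causes were not tested. The lowest genes, with a few counts per library, are limited by depth.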
